A study of Ictalurus punctatus and Ictalurus punctatus x Ictalurus furcatus with 18 samples.

Results

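Liver transcripts of hybrid catfish were compared with those of Delta Select channel catfish after both had lived for 6 weeks in water that cycled daily between 32 and 36 °C. The groups compared were defined by their labels, and the comparison was chosen with earlier results of these data known. It takes 6 of the 18 libraries of the series. Hybrid catfish (labelled Ictalurus punctatus x Ictalurus furcatus, Delta Select strain) are represented by libraries H2, H6 and H8. Delta Select channel catfish (Ictalurus punctatus) are represented by H3, H5 and H9. Each library is a pool of liver RNA from 3 fingerlings of 1 tank, so it stands for a tank, and the spread between libraries is the spread between tanks. Further libraries came from Red River channel catfish at 32 to 36 °C (H1, H4, H7), and from hybrids (L1, L4, L7) and Red River channel catfish (L2, L6, L9) at 27 to 31 °C. They entered the filter and the spread estimate of the main fit, but not the group means compared. The Red River libraries also chose the temperature-responsive transcripts. Otherwise these libraries give a second look at the same transcripts. Of the low-temperature Delta Select libraries, L3 and L5 carried transcripts otherwise found in hybrids, against their labels, so that this group was left out of the tests reported here. It enters an alternative fit of all 18 libraries, and L8 alone is set beside other groups without a test.

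Hybrid catfish for farming are bred by crossing channel catfish with blue catfish, and such a fish carries a set of chromosomes from each species. Where the species differ in sequence, an assembly of transcripts can hold separate versions of the same gene, and short reads can fall on either. The liver, the organ sampled, makes most plasma proteins and handles nutrients, bile and waste nitrogen, and it is widely sampled in studies of thermal stress in fish. The deposited counts are per assembled transcript, with identifiers that state an assembly k-mer size and a number. None of the 144746 identifiers matched the gene table of channel catfish (0 matches among 32344 genes), so transcripts are named by identifier, their functions are not given, and liver markers could not be checked. In bulk tissue, fewer cells of a type and less RNA per cell cannot be told apart.

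The 6 libraries held between 39947479 reads on transcripts in H6 and 76146359 in H3. Reads assigned to no transcript made up 24.7% of the hybrid libraries and 24.5% of the Delta Select libraries on average. The 20 most abundant transcripts took 10.9% to 12.0% of hybrid reads and 11.5% to 12.3% of Delta Select reads. Among these 20, 5 were higher and 4 lower in hybrids, where 18.5% and 14.2% of all transcripts tested were, and their log2 fold changes lay between -1.14 and 0.82.

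Hybrid livers had reads on more transcripts than Delta Select livers. After every library was thinned to 39947479 reads, 123620, 124802 and 123967 transcripts had at least 1 read in the hybrid libraries H2, H6 and H8. The Delta Select libraries H3, H5 and H9 had 119169, 118498 and 120491. Each hybrid library thus lay above each Delta Select library, with means of 124130 ± 608 and 119386 ± 1014 (SD, n = 3 and 3). The exact permutation test gave a two-sided p of 0.1, which is the smallest that 3 libraries against 3 allow.

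The comparison asked how the liver of the hybrid differs from that of its channel strain under heat. Many transcripts differed, more of them upward in hybrids, and the rises reached much larger folds than the falls. Of 95749 transcripts tested, 31294 were called at an adjusted p under 0.05 (edgeR quasi-likelihood test), which is 32.7%. In hybrids 17732 rose (18.5%) and 13562 fell (14.2%). Called rises had a median log2 fold change of 1.36, with quartiles of 0.85 and 2.23. Called falls had a median of -0.90, with quartiles of -1.21 and -0.67. Over all transcripts tested the median was -0.01. The 3 hybrid libraries did not overlap the 3 Delta Select libraries for 17122 of the called rises (96.6%) and 12773 of the called falls (94.2%). Of all transcripts tested, 24.4% were separated upward and 21.1% downward. The separation of called transcripts follows largely from calling them on the same libraries.

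The falls were of a narrow range of sizes, and the rises reached further. Of the falls, 96.9% were smaller than 4-fold, against 70.1% of the rises. Over 4-fold, 5297 transcripts rose and 425 fell. Over 16-fold, 1341 rose and 24 fell. With transcripts of at most 3 reads in the lower group taken at the bound that 3 reads allow, these became 1262 and 16. These counts moved with the filter on low counts. With no filter, 7491 rose and 655 fell over 4-fold, and 2394 rose and 95 fell over 16-fold. With a mean of at least 50 reads, 1609 rose and 94 fell over 4-fold, and 413 rose and 10 fell over 16-fold. The counts of large falls also moved with the libraries used. Without H6, 644 fell over 4-fold, and with only the 6 libraries fitted 279 did. Without H2 or H5, 45 and 43 fell over 16-fold, against 37 in DESeq2 and 6 with only the 6 libraries fitted. Rises outnumbered falls at both sizes under each of these settings.

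**Figure D1:**
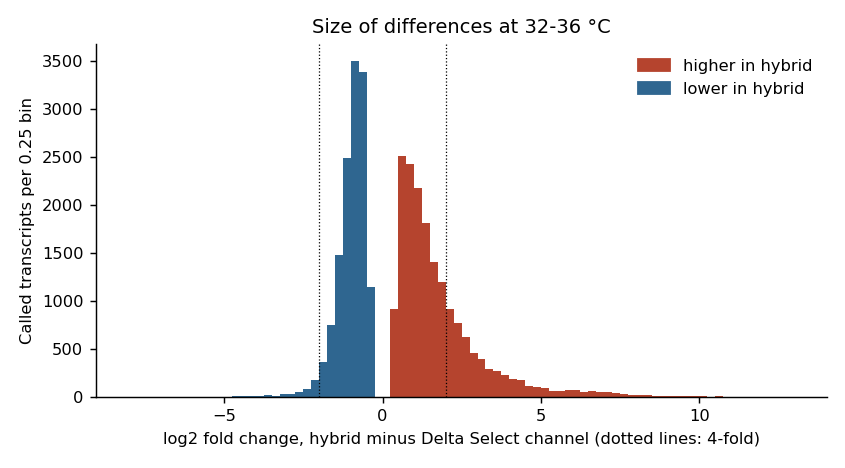
Number of called transcripts (y axis) in bins of 0.25 by log2 fold change (x axis), hybrid minus Delta Select channel catfish at 32 to 36 °C. Falls, in blue, lie mostly within 4-fold (96.9%), while rises, in red, continue past it (5297 over 4-fold).

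This asymmetry in changes over 4-fold was found at levels up to 1000 CPM. Transcripts were grouped by their mean over the 6 libraries in CPM (counts per 1000000 reads of the TMM-normalised library size). Among 45416 transcripts under 1 CPM, 7.65% were over 4-fold higher in hybrids and 0.883% over 4-fold lower, whether or not they were called. Among 9339 transcripts of 10 to 100 CPM the shares were 3.81% and 0.203%. Among 1457 transcripts of 100 to 1000 CPM they were 2.47% and 0.824%. Over 1000 CPM they were 1.39% and 0% of 72 transcripts, too few to show an order. Calls made up 26.5% of transcripts under 1 CPM and 42.0% of those at 10 to 100 CPM and 37.5% of the 72 over 1000 CPM. The median called rise was 1.81 on the log2 scale under 1 CPM, 0.68 at 100 to 1000 CPM and 0.72 over 1000 CPM. The median called fall was -1.20, -0.65 and -0.72 in these bins.

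Many called falls were near a 2-fold lower level, but their sizes formed no separate class there. Of called falls, 44.3% had a log2 fold change within 0.25 of -1, and 25.95% of called rises were as close to 1. Called falls numbered 2496 between -1.25 and -1, 3507 between -1 and -0.75 and 3394 between -0.75 and -0.5. There were 0 between -0.25 and 0, so the threshold for a call shapes this share. Among all transcripts tested, 9.87% were that close to -1 and 7.60% to 1. The share near -1 was the larger in the bins up to 100 CPM. At 100 to 1000 CPM 4.80% were near -1 and 6.45% near 1, and over 1000 CPM 4.17% and 8.33%. The near 2-fold falls and rises described next are only a part of the tested transcripts in these shares. The near 2-fold falls with a mean of at least 100 CPM numbered 64. Their median level was 97.0, 107 and 106 CPM in the hybrid libraries H2, H6 and H8, against 227, 218 and 193 CPM in the Delta Select libraries H3, H5 and H9. The 96 near 2-fold rises of the same abundance had medians of 223, 247 and 230 CPM in hybrids and of 123 CPM in each Delta Select library. The separation of the groups in both sets follows from how the transcripts were chosen. In the low-temperature libraries, 56 of the 64 were called lower in hybrids than in Red River fish, with a median log2 fold change of -0.94. Of the 96, 91 were called higher, with a median of 0.95. Among all transcripts tested there, 14.7% were called lower and 18.2% higher, shares that are not matched for level.

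Summed over all called rises, the level was 290321, 308482 and 296233 CPM in the hybrid libraries H2, H6 and H8. It was 153878, 156535 and 150354 CPM in the Delta Select libraries H3, H5 and H9. Summed over all called falls, it was 116311, 125332 and 117056 CPM in hybrids and 214044, 203084 and 201159 CPM in Delta Select fish. These sums follow from the choice of transcripts on the same libraries. The libraries that the contrast did not compare showed the same order. In hybrids at the low temperature the rises summed to 326960, 347421 and 334738 CPM, against 181953, 151136 and 180409 CPM in Red River fish at that temperature. The falls summed to 127776, 133786 and 134430 CPM in these hybrids and to 214211, 188102 and 211458 CPM in these Red River fish. In Red River fish at the high temperature the rises came to between 161450 and 176051 CPM and the falls to between 209348 and 216294 CPM, close to the Delta Select values.

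**Figure D2:**
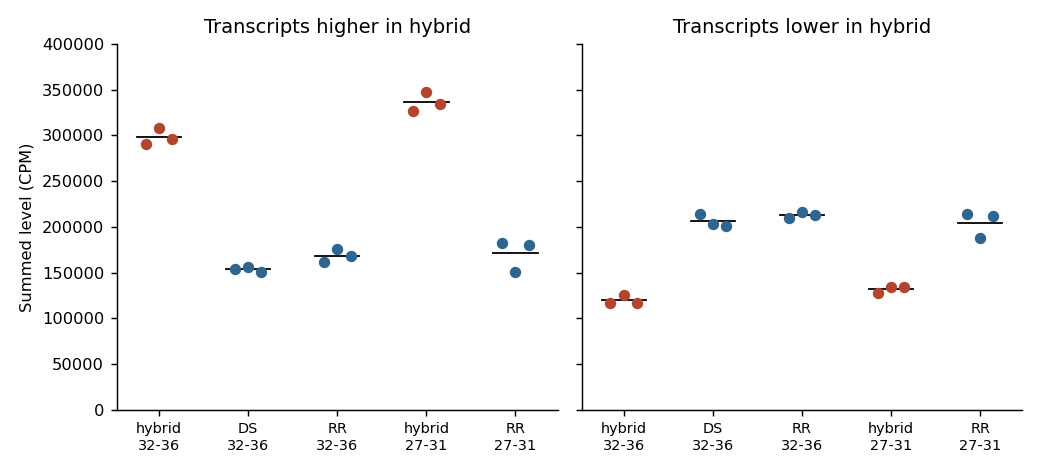
Summed level in CPM (y axis) of the 17732 transcripts called higher in hybrids (left) and the 13562 called lower (right), for each tank pool, with bars at group means (x axis: type, with temperature in °C; DS is Delta Select channel, RR is Red River channel). Hybrid libraries, in red, lie at 290321 CPM or more on the left and at 134430 CPM or less on the right, apart from all channel libraries shown, in blue.

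A set of transcripts was found in every hybrid tank and was close to absent from every Delta Select tank. There were 81 with at least 1 CPM in each hybrid library and at most 3 reads over all 3 Delta Select libraries, and 29 of them had 0 reads there. The reverse class, with at least 1 CPM in each Delta Select library and at most 3 reads over the hybrids, held 0 transcripts, also without regard to calls. The median level of the 81 was 2.88, 3.11 and 2.87 CPM in H2, H6 and H8, and 0 in H3, H5 and H9. Most were thus of low abundance, and 6 exceeded 10 CPM in every hybrid library. By a wider rule, 61 transcripts had at least 10 CPM in each hybrid library and under 1 CPM in each Delta Select library, against 0 in the reverse direction.

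The same 81 were found when calls were disregarded, so only the 6 compared libraries chose them, and other libraries separated in the same way. In hybrids at the low temperature their median was 2.47, 2.98 and 2.37 CPM in L1, L4 and L7, and in Red River fish it was 0 in all 6 libraries. Each low-temperature hybrid library lay above each low-temperature Red River library for all 81, and 80 were called higher there. The 81 could pass the filter of that fit only through the hybrids, so the count of calls adds little. Among all transcripts tested there, 18.2% were called higher. The share of all transcripts separated in this way was not computed, so the separation of the 81 is a description only. Of the 81, 71 had at most 3 reads over the 3 low-temperature Red River libraries, and 71 over the 3 high-temperature ones. In L8, a Delta Select library of the low temperature, 78 had at most 3 reads.

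**Figure D3:**
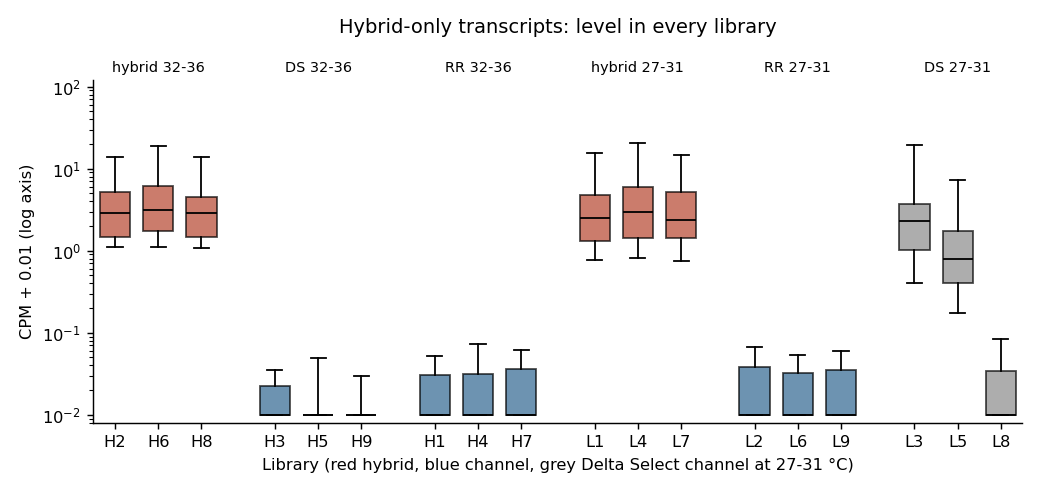
Level of the 81 hybrid-only transcripts in each library, as CPM plus 0.01 on a log axis (y axis), with boxes for quartiles, lines for medians and whiskers for the 5th and 95th percentiles (x axis: library, grouped by type and temperature in °C). Medians lie between 2.37 and 3.11 CPM in the hybrid libraries and at 0 in the Red River libraries and the high-temperature Delta Select libraries, and L3, L5 and L8, in grey, have 2.28, 0.781 and 0 CPM.

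The largest rise among the more abundant transcripts was that of k94:98188. It had 43.3, 53.9 and 55.7 CPM in the hybrid libraries H2, H6 and H8, against 0, 0.0195 and 0 CPM in the Delta Select libraries H3, H5 and H9. The ratio of summed reads was 9170, with a 95% exact interval of 1645 to 362255 that covers counting error only, and it rests on 1 Delta Select read (edgeR adjusted p = 1.34e-13). At the low temperature it had 62.4, 80.1 and 104 CPM in hybrids and at most 0.0281 CPM in Red River fish. It was thus abundant in all 6 hybrid tanks and close to 0 in the Delta Select tanks of the high temperature and the Red River tanks. The libraries L3, L5 and L8, labelled low-temperature Delta Select, had 42.1, 21.2 and 0.0737 CPM.

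A second rise was of a transcript expressed in both groups. The level of k86:108599 was 279, 251 and 186 CPM in the hybrid libraries H2, H6 and H8, and 14.9, 15.4 and 15.1 CPM in the Delta Select libraries H3, H5 and H9. The hybrid tanks differed among themselves more than the Delta Select tanks did, with an SD of 47.9 against 0.254 CPM (n = 3 and 3), and the groups lay far apart. The log2 fold change was 3.98 ± 0.20 (SE; edgeR adjusted p = 5.80e-11). Red River fish at the high temperature had 12.4, 15.04 and 15.6 CPM, close to Delta Select fish. Between hybrids and Red River fish at the low temperature the log2 fold change was 4.27 ± 0.22 (edgeR adjusted p = 2.09e-08). The libraries L3, L5 and L8, labelled low-temperature Delta Select, had 177, 103 and 23.4 CPM.

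The size of both falls that the naming rule selected rested on the single tank H3, while their calls held without it. The transcript k66:1869628 had 6.30, 6.73 and 5.08 CPM in the hybrid libraries H2, H6 and H8, against 3879, 10.4 and 7.85 CPM in the Delta Select libraries H3, H5 and H9. Its log2 fold change was -7.75 ± 2.098 (SE; edgeR adjusted p = 0.0171) with H3 and -0.60 (adjusted p = 0.0185) without it. It was not called without H2, H6 or H8 (adjusted p = 0.0594, 0.0582 and 0.0623), in limma-voom or with only the 6 libraries fitted. The transcript k58:1034763u had 59.7, 50.8 and 60.7 CPM in hybrids, against 3966, 103 and 144 CPM in Delta Select fish. Its log2 fold change was -4.62 ± 1.20 (edgeR adjusted p = 0.0139), and -1.12 without H3 (adjusted p = 0.000108). It was not called without H6 (adjusted p = 0.0515), in limma-voom or with only the 6 libraries fitted. Each hybrid library lay below each Delta Select library for both transcripts, as the naming rule required. Among libraries outside the comparison, k66:1869628 had 49.7 CPM in L8 and between 3.65 and 8.07 CPM in the rest.

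**Figure D4:**
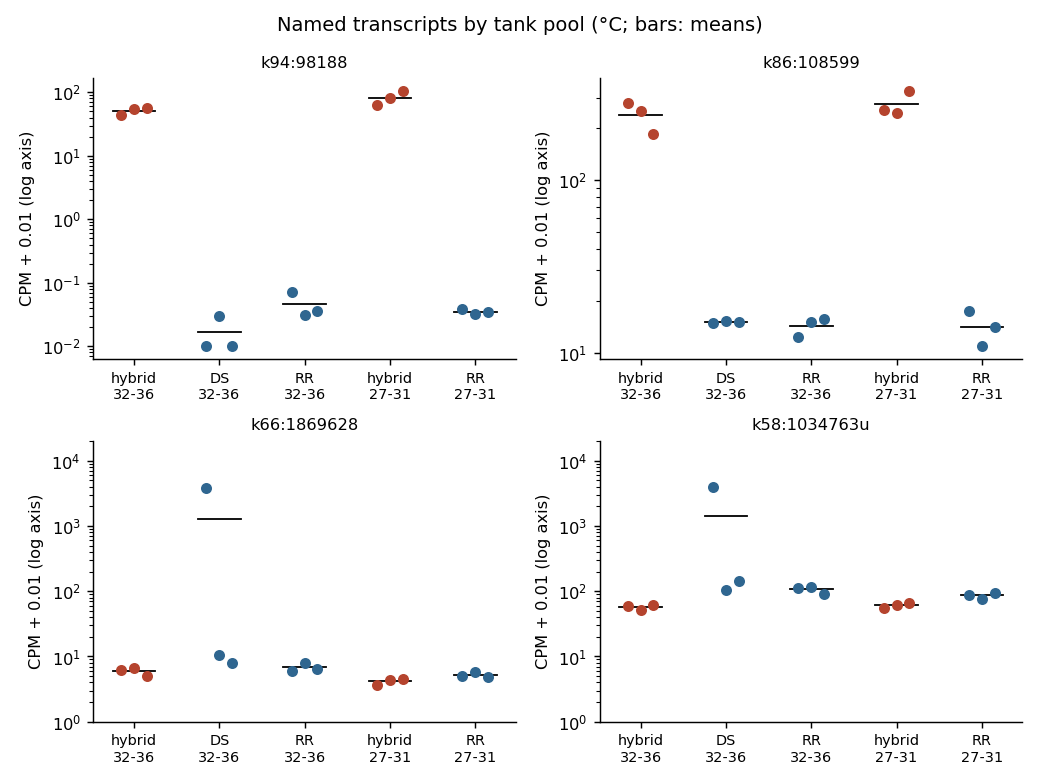
Level of the 4 named transcripts in each tank pool, as CPM plus 0.01 on a log axis (y axis), with bars at group means (x axis: type, with temperature in °C; DS is Delta Select channel, RR is Red River channel; hybrids in red). The upper transcripts separate hybrids from all channel fish shown, and the lower ones stand out in 1 Delta Select tank, at 3879 and 3966 CPM.

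Falls over 4-fold that stayed called without any single tank had a low median abundance. Of the 425, 274 stayed called without each of the 6 libraries in turn. Their median level was 0.113, 0.129 and 0.121 CPM in the hybrid libraries H2, H6 and H8 and 0.600, 0.673 and 0.681 CPM in the Delta Select libraries H3, H5 and H9. Some were well expressed. The level of 1 of them, chosen after its values were seen, was 2.18, 1.55 and 3.09 CPM in hybrids and 13.6, 15.3 and 21.4 CPM in Delta Select fish. Its log2 fold change was -2.87 ± 0.38 (SE; edgeR adjusted p = 9.94e-05), and between low-temperature hybrids and Red River fish it was -0.24 (edgeR adjusted p = 0.637). Its level was low on both sides there, at 1.38, 0.521 and 0.778 CPM in hybrids and 1.38, 0.791 and 0.944 CPM in Red River fish. In Red River fish at the high temperature it was 9.68, 14.1 and 22.1 CPM. Of the 5297 rises over 4-fold, 4830 stayed called in the same way. Their medians were 1.03, 1.09 and 1.01 CPM in hybrids and 0.114, 0.117 and 0.120 CPM in Delta Select fish. Over all sizes, 12097 of 17732 rises and 6951 of 13562 falls stayed called without each library in turn, each time with 2 libraries against 3.

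Most of the differences were also seen between hybrids and Red River fish at the low temperature, in 6 libraries that share none with the comparison above. That fit differs in strain and in temperature as well as in its libraries. Of 81890 transcripts tested there, 32.9% were called, 18.2% higher and 14.7% lower in hybrids. Of the 17732 rises, 15484 were tested there, 97.1% of these had the same direction and 73.5% were called higher. Of the 13562 falls, 12548 were tested there, 95.3% had the same direction and 56.9% were called lower. Among all transcripts tested in both fits, 79.8% had the same direction. The spread estimate of the high-temperature fit includes these libraries. With only the 6 high-temperature libraries fitted, 75.1% of rises and 57.3% of falls were called in the same direction at the low temperature.

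The larger the rise, the more often it was seen again among those tested there, which were 5846 of 5853 under 2-fold and 897 of 1341 over 16-fold. Of tested rises under 2-fold, 56.0% were called higher in low-temperature hybrids, against 76.8% of those of 2 to 4-fold, 93.8% of those of 4 to 16-fold and 97.7% of those over 16-fold. All rises over 16-fold had medians of 0.0281, 0.0220 and 0.0248 CPM in the Red River libraries L2, L6 and L9. All rises over 4-fold had medians of 0.112, 0.110 and 0.124 CPM in these libraries. Transcripts so low there could pass the filter only through the hybrids. The high shares called among rises over 4-fold thus follow largely from the filter. Larger differences are also easier to call. Of the 3956 rises of 4 to 16-fold, 3018 were tested there. Their median log2 fold change was 2.59 at the high temperature and 2.54 in the low-temperature libraries. The filter favours transcripts that are high in the low-temperature hybrids, so these medians are not an independent match in size. Of tested falls, 52.9% were called lower again under 2-fold, 63.7% at 2 to 4-fold, 66.8% at 4 to 16-fold and 12 of 15 over 16-fold. Only 205 of the 401 falls of 4 to 16-fold were tested there, and their median was -2.23 at the high and -1.76 at the low temperature. The asymmetry was also there, with 4262 rises and 661 falls over 4-fold in low-temperature hybrids against Red River fish. Transcripts near absent from 1 side numbered 104 on the hybrid side and 6 on the channel side, and 53 of the 104 were among the 81 described above.

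Few transcripts differed in opposite directions. Of those tested in both fits, 24 were called higher in high-temperature hybrids than in Delta Select fish and lower in low-temperature hybrids than in Red River fish, with median log2 fold changes of 1.27 and -0.86. A further 38 were called lower in the first and higher in the second, with medians of -0.89 and 0.73. Strain and temperature cannot be told apart in these 62.

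Transcripts that respond to the high temperature were chosen in Red River fish alone, whose libraries are in neither compared group. There, 9.37% of 80741 transcripts were called, 4359 raised (5.4%) and 3209 lowered (3.97%) at the high temperature. At that temperature, hybrids had lower levels than Delta Select fish more often among the raised transcripts. Of the 4359, 1151 were called lower in hybrids (26.4%) and 490 higher (11.2%). Among the 73173 transcripts tested in Red River fish and not called for temperature, 15.4% were called lower and 15.5% higher. These lists are not matched for level, and the share called lower varies with level. Over all transcripts tested, 9.25% were called lower and 17.3% higher under 1 CPM, against 18.3% and 18.9% at 1 to 10 CPM. The raised transcripts had medians of 4.18, 4.48 and 4.15 CPM in H3, H5 and H9. The median log2 fold change, hybrid minus Delta Select, was -0.21 for the raised transcripts, -0.06 for those not called for temperature and -0.01 over all 95749.

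Among the transcripts raised most, lower calls also outnumbered higher ones, but the summed levels of the groups overlapped. Over all transcripts tested, 14.2% were called lower in hybrids and 18.5% higher. Of 263 raised over 8-fold in Red River fish, 56 were called lower in hybrids (21.3%) and 12 higher (4.56%). Their summed level was 4531, 3954 and 2785 CPM in the hybrid libraries H2, H6 and H8, against 4346, 4872 and 3044 CPM in the Delta Select libraries H3, H5 and H9, and no order of the groups was seen in these sums. H8 and H9 were the lowest of their groups. All 6 libraries lay above the 330 to 492 CPM of the low-temperature hybrids and the 245 to 294 CPM of the low-temperature Red River fish. Of the 3209 transcripts lowered in Red River fish, 655 were called lower in hybrids (20.4%) and 539 higher (16.8%), with a median log2 fold change of -0.10. This order turned round without H3, with 14.96% lower and 15.1% higher, and also with a list made without H7, at 18.49% and 18.54%.

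Levels of the raised transcripts were also set beside those of low-temperature fish. On the scale log2(CPM + 0.1), the raised transcripts had a median difference of -0.20 between hybrids and Delta Select fish at the high temperature. Between low-temperature hybrids and L8, the single low-temperature Delta Select library without the hybrid-only transcripts, it was -0.11, against 0.03 over all transcripts. From the low to the high temperature the raised transcripts changed by a median of 0.61 in hybrids, and by 0.76 in Delta Select fish when set against L8. With 1 library on that side these values have no replicate check, and the difference between them was not tested.

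**Figure D5:**
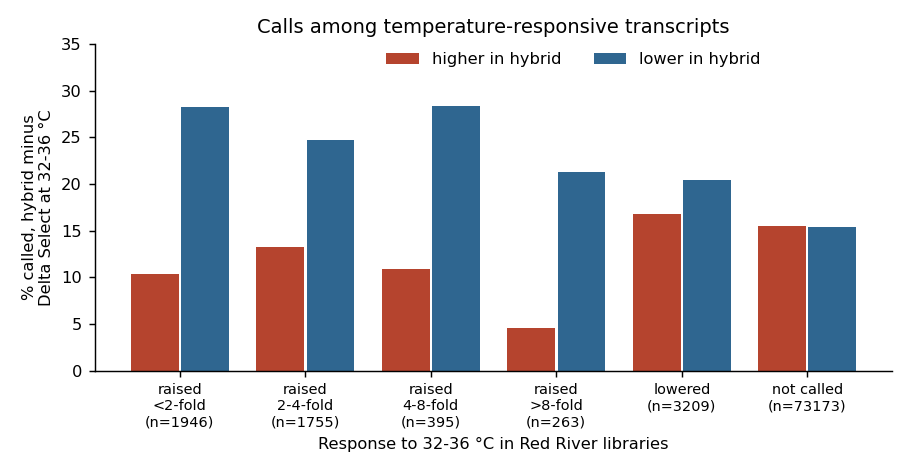
Share of transcripts called higher (red) or lower (blue) in hybrids than in Delta Select fish at 32 to 36 °C (y axis, percent), by their response to the high temperature in Red River fish (x axis). Lower calls outnumber higher calls in each of the 4 classes of raised transcripts, while the shares are 15.4% and 15.5% among transcripts not called for temperature. The classes are not matched for level.

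The transcripts raised most strongly in Red River fish did not separate the groups. The level of k86:237239 was 30.8, 20.9 and 4.18 CPM in the hybrid libraries H2, H6 and H8, and 24.4, 21.3 and 3.97 CPM in the Delta Select libraries H3, H5 and H9. Its log2 fold change was 0.17 ± 0.73 (SE; edgeR adjusted p = 0.887). The level of k86:91142 was 51.3, 41.5 and 7.72 CPM in hybrids and 51.3, 44.7 and 11.4 CPM in Delta Select fish, and the groups differed by -0.09 ± 0.65 on the log2 scale (SE; edgeR adjusted p = 0.929). In both transcripts H8 was the lowest hybrid tank and H9 the lowest Delta Select tank. Of those lowered most in Red River fish, k54:2685061 had 0.515, 1.27 and 4.18 CPM in hybrids and 10.5, 7.52 and 0.1002 CPM in Delta Select fish. The transcript k66:1863984 had 1.34, 1.32 and 6.79 CPM in hybrids and 17.0, 11.3 and 0.240 CPM in Delta Select fish. Neither was called (edgeR adjusted p = 0.285 and 0.281), and the groups overlapped, with H9 below every hybrid tank.

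Tanks of the same group were alike for most transcripts. Among 18900 transcripts with a mean of at least 5 CPM in hybrids, the highest tank exceeded the lowest by a median of 1.23-fold, and among 18619 such transcripts in Delta Select fish by 1.25-fold. A range of over 8-fold was found for 155 transcripts in hybrids and for 95 in Delta Select fish. Of the 155, 103 were lowest in H2 and 85 were highest in H8. In all, 96 of them were called higher in hybrids than in Delta Select fish, where 18.5% of all transcripts tested were. Since 68 of the 155 were under 1 CPM in every Delta Select library and reached the required mean through the hybrids, this count is a description only. Of the 95, 6 were called in either direction, where 32.7% of all transcripts tested were. A wide range among tanks enters the spread that the test uses, so few calls follow from the choice and this count is also a description only. Of the 95, 12 were under 1 CPM in every hybrid library. Of the 155, 6 were called for temperature in Red River fish, and of the 95, 10 were, where 9.37% of the transcripts tested in Red River fish were called. Neither set was limited to transcripts tested in Red River fish, so these counts cannot be read against that share.

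The share of called transcripts was larger among identifiers of larger assembly k-mer size. It was 15.8% for rises and 12.1% for falls among 12971 transcripts of k-mer size 50, and 21.3% and 17.4% among 5746 of size 94. Mean levels moved with it, at a median of 0.569 CPM for size 50 and 2.59 CPM for size 94, and their part in the shares was not tested.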

How the data were processed

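Liver RNA was sequenced with 50-base single-end reads in 18 libraries, 3 for each of 6 groups. The values used are the raw counts of reads per assembled transcript that the authors deposited. Per the submitters' processing notes, the tools included Bowtie2 2.1.0, R 3.1.0 and DESeq 1.12.1. How the assembly was made, and how reads shared between transcripts and strands were counted, is not given in the sources used here, so the count of any 1 transcript with a close copy is uncertain. The deposited normalized table was not used. Reads assigned to no transcript (on average 24.7% in the hybrids and 24.5% in the Delta Select fish compared) entered neither library sizes nor tests.

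Counts were tested in R 4.3.3 with the quasi-likelihood test of edgeR 4.0.16 (TMM normalisation, robust fit, Benjamini-Hochberg adjustment over all transcripts tested, threshold 0.05), and the steps were tested on simulated data. The fit held 15 libraries of 5 groups, without the low-temperature Delta Select group, and filterByExpr left out 48997 of 144746 transcripts. The other comparisons (low-temperature hybrids against Red River fish, and Red River fish between temperatures) were fitted on their own 6 libraries. SEs were derived from the F statistic. Ratios on few reads have 95% exact intervals, for counting error only, and reads carry no molecular identifiers. Depth was 39947479 to 76146359 reads in the 6 compared libraries. Replicates differed by more than sampling noise (chi-square of 14.1 to 34.1 per degree of freedom). P-values measure the spread between tank pools.

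Named transcripts are, in each direction, the called one of largest log2 fold change among those averaging at least 3 in log2 CPM without overlap of the groups, and the next with a mean of at least 10 CPM in both groups. For temperature in Red River fish, the first rule named 2 in each direction. The alternatives were other sets of fitted libraries, DESeq2 1.42.0, limma-voom (limma 3.58.1), DESeq2 size factors, other filters, leaving out the 20 most abundant transcripts, and leaving out each library. The comparison, the classes and the lists were chosen with earlier results of these data known. The alternatives for the shares of temperature-responsive transcripts, and for the calls seen again at low temperature, were added after seeing the data.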

Additional observations from a re-analysis of the deposited data

Results flagged for a closer look

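The 81 transcripts found in hybrids and near absent from high-temperature Delta Select fish had a median of 2.28 CPM in L3 and 0.781 CPM in L5, which are labelled low-temperature Delta Select channel catfish and were in no test reported here. In H3, H5, H9 and the low-temperature Delta Select library L8 the median was 0. Of the 81, 1 had at most 3 reads in L3 and 2 had at most 3 reads in L5. The cause was not tested.

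Calls went in opposite directions for 62 transcripts in high-temperature hybrids against Delta Select fish and in low-temperature hybrids against Red River fish. For 46 of them no library overlapped in either comparison. That follows largely from calling them on the same libraries, so the count is a description only. Of all transcripts tested in the first comparison, 24.4% were separated upward and 21.1% downward. Of the 46, 17 were higher in the first and 29 lower. The difference between the comparisons was not tested, and strain and temperature cannot be told apart in it.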

How the results depend on the processing

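The number of called transcripts stayed between 25800 and 32162 under 13 of 14 alternatives, among them 27629 with only the 6 libraries fitted, 28594 with all 18, 30063 in DESeq2 and 31839 in limma-voom. With a mean of at least 50 reads required, fewer transcripts were tested and 18531 were called, 9907 higher and 8624 lower. Rises made up 53.5% to 60.6% of calls. Leaving out each library in turn gave 25800 to 28476 calls, and a detected-transcript difference of 4300 to 5296. For Red River fish between temperatures, calls numbered 4267 without L6, 4868 without H4 and 4876 without H7, against 7568, and up to 6828 without another library. The cause was not tested. The shares of transcripts raised there that were lower in hybrids stayed between 19.6% and 27.3%, and higher between 9.25% and 12.8%. For lowered transcripts the shares were 14.96% to 21.5% lower and 13.1% to 20.8% higher, and their order turned round without H3 (14.96% lower and 15.1% higher) and with a list made without H7 (18.49% and 18.54%).

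By construction, fewer transcripts passed stricter hybrid-only rules, with 29 at 0 reads allowed and 15 at 5 CPM, and a window of 0.5 held 20.7% near -1 and 16.6% near 1. The log2 fold change of k94:98188 was 11.96 to 14.17 and that of k86:108599 was 3.85 to 4.13, both called under all 14 alternatives. DESeq2 gave no adjusted p for k66:1869628 or k58:1034763u. In limma-voom their log2 fold changes were -3.55 (adjusted p = 0.196) and -2.79 (adjusted p = 0.0747). No paired analysis was possible because the labels give no pairing of tanks between groups. The hybrid libraries are numbered 2, 6 and 8 and the Delta Select libraries 3, 5 and 9. Each number is used once per temperature, so the numbers do not bear on pairing. With 3 tank pools a side, an exact test of 1 value cannot go below 0.1, and the share of transcripts called was lowest under 1 CPM, at 26.5%.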
